A study of Mus musculus with 12 samples.

Results

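The question asked of these arrays was whether the lung responds differently to bleomycin when Fra-1 is missing. The quantity is the genotype by bleomycin interaction, which is the response of the Fra-1 deficient lungs (KOT minus KOC) minus the response of the Fra-1+/+ lungs (WTT minus WTC), on the log2 scale. A negative value means that the deficient lungs moved less far up, or further down, than the Fra-1+/+ lungs, and a positive value the reverse. It was computed for every transcript cluster with a gene symbol, which are 23410 of the 35556 clusters on the array, from all 12 arrays. Of these clusters, 21789 carried 1 symbol, and genes are named from those alone.

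Each array held the RNA of 1 left lung from a mixed C57/129S mouse, collected 5 days after an intratracheal dose of 30 µL PBS or of PBS with 0.075 U bleomycin. WTC and WTT are the PBS and bleomycin groups of Fra-1+/+ mice, which carried floxed Fra-1 alleles and no Cre. KOC and KOT are the PBS and bleomycin groups of Fra-1-/- mice (Fra-1Δ/Δ in the study's notation), in which Meox2-Cre, active in the embryo and not in the extra-embryonic tissues, deleted the floxed alleles, so the deletion was not limited to the lung. Each group held 3 mice, named below by their animal numbers. The deficient mice were numbered from 53 to 81, and the Fra-1+/+ mice from 157 to 164 apart from WTC mouse 76. A difference between genotypes therefore cannot be told apart from 1 between these ranges of animal numbers. Every mouse was labelled female and 2 months old, whereas the study's methods give a higher age, and on 12 of 12 arrays Y-linked genes exceeded Xist. The defining markers of lung were near the top of every array, with Sftpc, the surfactant protein C gene of alveolar type 2 cells, between 13.6 and 14.1 on the log2 scale.

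Fra-1, the product of Fosl1, is a Fos family protein that binds DNA as a dimer with a Jun protein. These dimers form the transcription factor AP-1, which is induced rapidly by stress and injury. Bleomycin breaks DNA strands, and in the mouse lung it causes epithelial injury and inflammation that are followed by scarring. An interaction is a difference of differences, so its error combines the spread of all 4 groups.

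Fosl1 itself was measured first. The Fosl1 cluster read 6.37, 6.76 and 6.86 in the WTC mice and 7.81, 8.19 and 8.32 in the WTT mice. In the deficient mice it read 6.26, 6.56 and 6.68 without bleomycin and 7.28, 7.32 and 7.33 with it. All KOT mice were therefore below all WTT mice, while the PBS groups overlapped. The Fosl1 cluster rose by 1.44 in Fra-1+/+ lungs (limma adjusted p = 2.3e-04) and by 0.81 in deficient lungs (adjusted p = 0.0054), and the interaction was -0.63 ± 0.22 (SE, limma unadjusted p = 0.0141). Where the cluster's probes lie relative to the deleted exons was not examined, so the signal that remained in the deficient lungs does not check the genotype.

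No cluster had an interaction at an adjusted p under 0.05 in limma. An unadjusted p under 0.05 was reached by 1193, or 5.1% of those tested, and 701 of them were positive (2.99%) and 492 negative (2.1%). The local-pooled-error test (LPE), which the study's methods name and which takes the error from other clusters of a similar level rather than from the gene's own mice, called 236 clusters (1.01%) at an adjusted p under 0.01, of which 208 were positive and 28 negative (0.12%). The smallest limma adjusted p was 0.117. In the same fit, bleomycin changed 5027 clusters (21.5%) in Fra-1+/+ lungs, with 10.2% higher and 11.3% lower. In deficient lungs it changed 3604 (15.4%), with 7.42% higher and 7.98% lower. The median SE was 0.144 for the interaction against 0.102 for a response, and the 95% interval of the interaction lay within 2-fold in either direction for 94.3% of clusters. Among the 314 clusters that rose at least 2-fold on average, that share was 46.5%.

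Most of what bleomycin changed in one genotype moved the same way in the other. Of the clusters that passed the test in both genotypes, 2771 moved in the same direction and 0 in opposite directions. Another 2256 passed in Fra-1+/+ lungs alone, and 93.8% of those had the same sign in deficient lungs. In this group, chosen on arrays that the interaction shares, 21.8% had an unadjusted interaction p under 0.05. Of the 833 clusters that passed in deficient lungs alone, 94.7% had the same sign in Fra-1+/+ lungs. Among the 17550 clusters that passed in neither genotype, 67.0% had the same sign in both. The 3 genes of largest mean rise passed the test in both genotypes. Ccl2, the chemokine that draws monocytes, rose by 4.03 in Fra-1+/+ and by 3.59 in deficient lungs, and Timp1, an inhibitor of matrix metalloproteinases, rose by 3.95 and by 3.62. Cxcl10, an interferon-induced chemokine, rose by 3.48 and by 4.05. Their interactions were -0.44 ± 0.74, -0.34 ± 0.42 and 0.57 ± 0.86 (SE), and their 95% intervals of -2.05 to 1.17, -1.24 to 0.57 and -1.31 to 2.45 each held differences of more than 2-fold. The genes of largest mean fall also passed in both. Tff2, a mucosal trefoil peptide gene, fell by 2.37 in Fra-1+/+ and fell by 2.41 in deficient lungs. Chad, a cartilage matrix protein gene, fell by 2.84 and fell by 1.77, and Aox3, an aldehyde oxidase gene, fell by 2.3 and fell by 1.86.

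**Figure D1:**
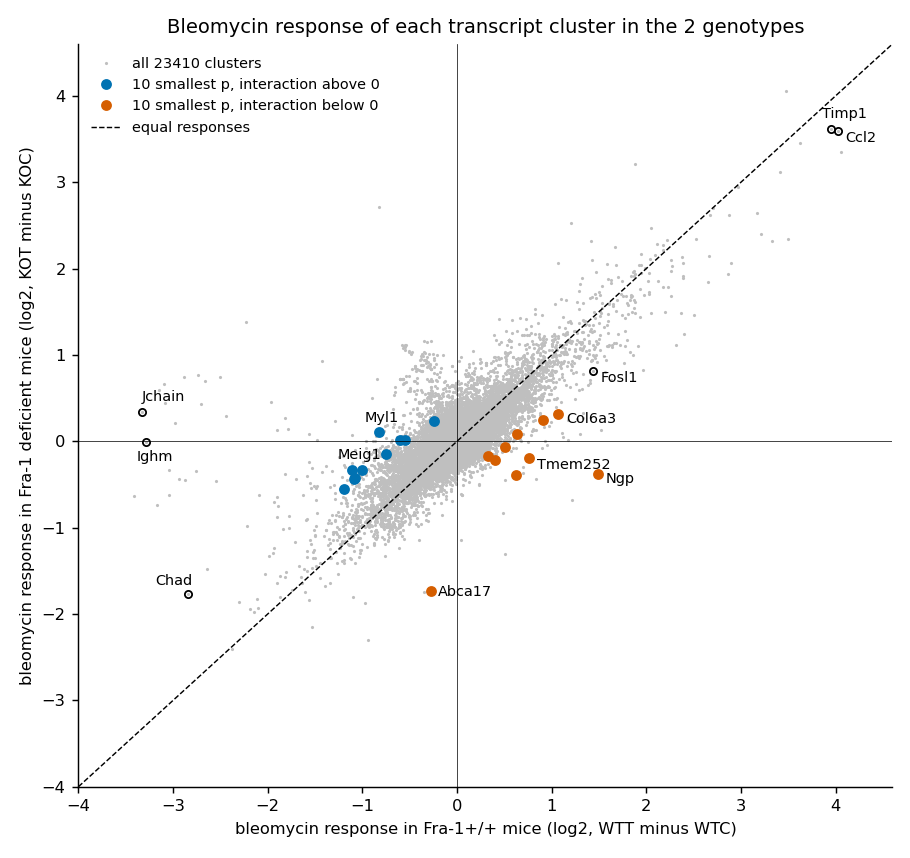
Bleomycin response of each of the 23410 clusters in Fra-1+/+ mice (horizontal axis, log2) against that in Fra-1 deficient mice (vertical axis, log2), with the line of equal responses. Orange and blue points are the 10 clusters of smallest p on each side, and open circles are other genes named in the text. Most clusters lie along the line, and the immunoglobulin genes Jchain and Ighm lie far to its left.

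Which genotype had the larger overall response depended on the test and on single mice. LPE called 1853 responses in Fra-1+/+ and 1889 in deficient lungs, against the larger number in Fra-1+/+ lungs by limma. Averaged over the genotypes, bleomycin changed 7505 clusters (32.1%). Over the 3683 that rose (15.7%), the median response was 0.38 in Fra-1+/+ lungs and 0.33 in deficient lungs, and 62.9% rose less in deficient lungs. Over the 3822 that fell (16.3%), the medians were -0.40 and -0.34. Among the 188 clusters that fell at least 2-fold on average, the medians were -1.33 and -1.10, and 75% fell less in deficient lungs. Taken mouse by mouse, the clusters that rose at least 2-fold stood 1.04, 1.51 and 1.76 above the PBS mean of their genotype in WTT mice 160, 161 and 164. They stood 1.41, 0.87 and 1.63 above it in KOT mice 72, 80 and 81. The ranges of the genotypes overlapped, and mouse 80 had the smallest response of all. Without mouse 80, the median interaction of the clusters that rose went from -0.0471 to -0.0041, and that of the clusters that fell turned from 0.0392 to -0.0237. The median variance between mice of 1 group was 0.0161 in WTT and between 0.0102 and 0.0115 in the other groups.

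**Figure D2:**
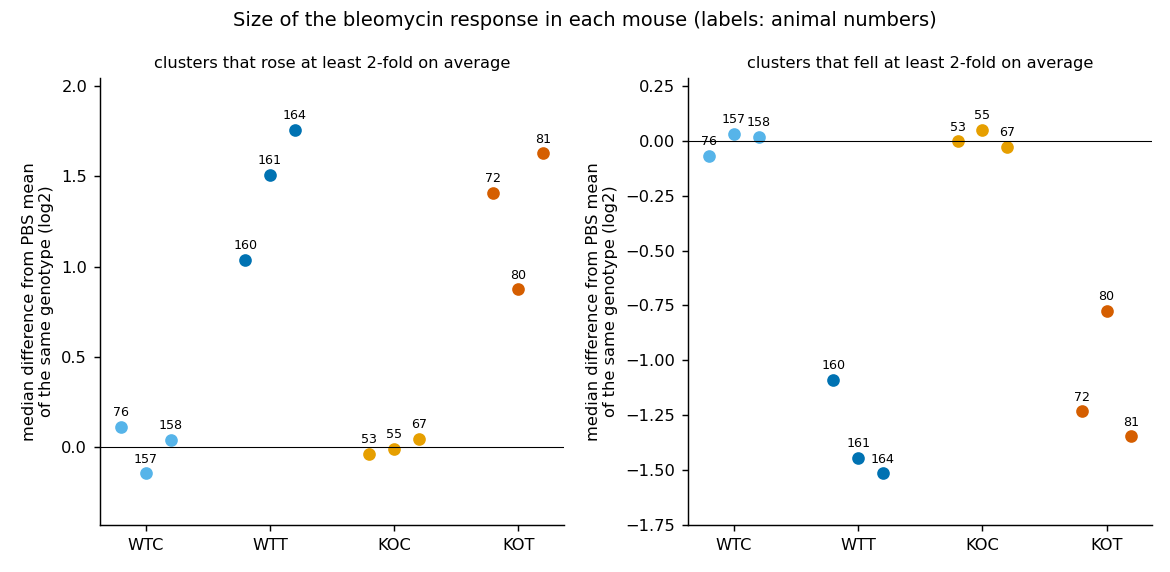
Median difference from the PBS mean of the same genotype (log2) in each mouse, over the clusters that rose (left) or fell (right) at least 2-fold on average. Points are mice with their animal numbers. WTT mouse 160 and KOT mouse 80 lie nearest to the PBS mice on both sides.

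The 2 genes of smallest interaction p had already differed between the genotypes without bleomycin. Abca17, an ABC transporter gene, read 6.24, 6.76 and 6.84 in WTC and 6.25, 6.32 and 6.44 in WTT mice. It read 7.97, 8.02 and 8.08 in KOC mice and 6.25, 6.30 and 6.31 in KOT mice. The KOC mice thus stood alone, above all other mice. Abca17 fell by 1.74 in deficient lungs (limma adjusted p = 8.7e-05), the response in Fra-1+/+ lungs was -0.28 (adjusted p = 0.16), and the interaction was -1.46 ± 0.18 (SE, adjusted p = 0.117). Without WTC mouse 76, the lowest of its group, the interaction of Abca17 was -1.27 with a limma adjusted p of 0.00499. Leaving out any other single mouse did not bring that adjusted p under 0.05.

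Tmem252, which encodes a transmembrane protein, also had a negative interaction, but here it was the Fra-1+/+ lungs that responded. It read 7.85, 7.94 and 8.07 in WTC mice and between 8.52 and 8.99 in all 9 other mice. It rose by 0.76 in Fra-1+/+ lungs (limma adjusted p = 4.5e-04), and the response was -0.20 in deficient lungs, with an interaction of -0.96 ± 0.13 (SE, adjusted p = 0.128). PBS-treated deficient lungs were already 0.90 above PBS-treated Fra-1+/+ lungs. Abca17 and Tmem252 were 2 of the 3 clusters that differed between KOC and WTC at an adjusted p under 0.05 (0.0128% of clusters). The third was H2-Ea, an MHC class II chain gene, which stood 5.71 higher in KOC and 6.10 higher in KOT, with an interaction of 0.39 ± 0.23 (SE). These genotype differences share their PBS arrays with the interaction.

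The other genes that lead the negative side rose in Fra-1+/+ lungs and did not pass the test in deficient lungs. Gjb5, a gap junction protein gene of epithelia, read 6.09, 6.11 and 6.17 in WTC and 6.69, 6.76 and 6.82 in WTT mice. It read between 6.22 and 6.42 in KOC and between 6.37 and 6.46 in KOT mice, where the groups overlapped. It rose by 0.63 in Fra-1+/+ lungs, against a response of 0.08 in deficient lungs (interaction -0.55 ± 0.10, SE). Bdkrb2, the bradykinin B2 receptor gene, rose by 0.62 with a response of -0.39 in deficient lungs, and there the KOC mice were 0.74 above the WTC mice. Myo7a, an unconventional myosin, rose by 0.91 against a response of 0.25. S1pr3, a receptor for sphingosine 1-phosphate, rose by 0.50 against a response of -0.07, and Ackr2, a scavenger receptor for inflammatory chemokines, by 0.33 against -0.17. The 10 clusters of smallest p on this side each had adjusted interaction p of 0.117 or more.

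Of 20 neutrophil genes, 8 rose in Fra-1+/+ lungs, beside 10.2% of all clusters, and 2 in deficient lungs, near the 7.42% of all clusters, with a large spread between mice. Ngp, which encodes a granule protein of immature neutrophils, read 5.82, 6.05 and 6.10 in WTC and 6.78, 7.52 and 8.13 in WTT mice. It read 6.06, 6.51 and 6.57 in KOC and between 5.95 and 6.06 in KOT mice, so only the WTT mice stood above the rest. Its interaction was -1.86 ± 0.37 (SE, limma adjusted p = 0.754). Of the 20, 18 had a negative interaction, with a median of -0.72 that ran from -1.29 without WTT mouse 160 to -0.23 without WTT mouse 164, and Ngp was the 1 member (5%) with an unadjusted p under 0.05, near the 5.1% of all clusters. The 2 with a positive interaction, of at most 0.04, were Camp and Ltf, which also encode granule proteins. The median SE over the 20 was 0.70. The mean level of the list was 8.19, 9.24 and 10.25 in WTT mice 160, 161 and 164, and 8.61, 7.67 and 9.20 in KOT mice 72, 80 and 81. The ranges overlapped, and KOT mouse 80 lay within the 7.62 to 7.83 of the PBS mice. Cxcl2, a neutrophil-attracting chemokine, read from 5.47 to 9.89 in WTT and from 5.20 to 7.98 in KOT mice (interaction -1.16 ± 1.28, SE). LPE, which does not use a gene's own spread between mice, called 5 neutrophil genes at an adjusted p under 0.01. All 5 were negative, beside 0.12% of all clusters called in that direction. In whole lung, fewer cells of a type cannot be told apart from less RNA per cell, and this holds for every cell type list below.

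**Figure D3:**
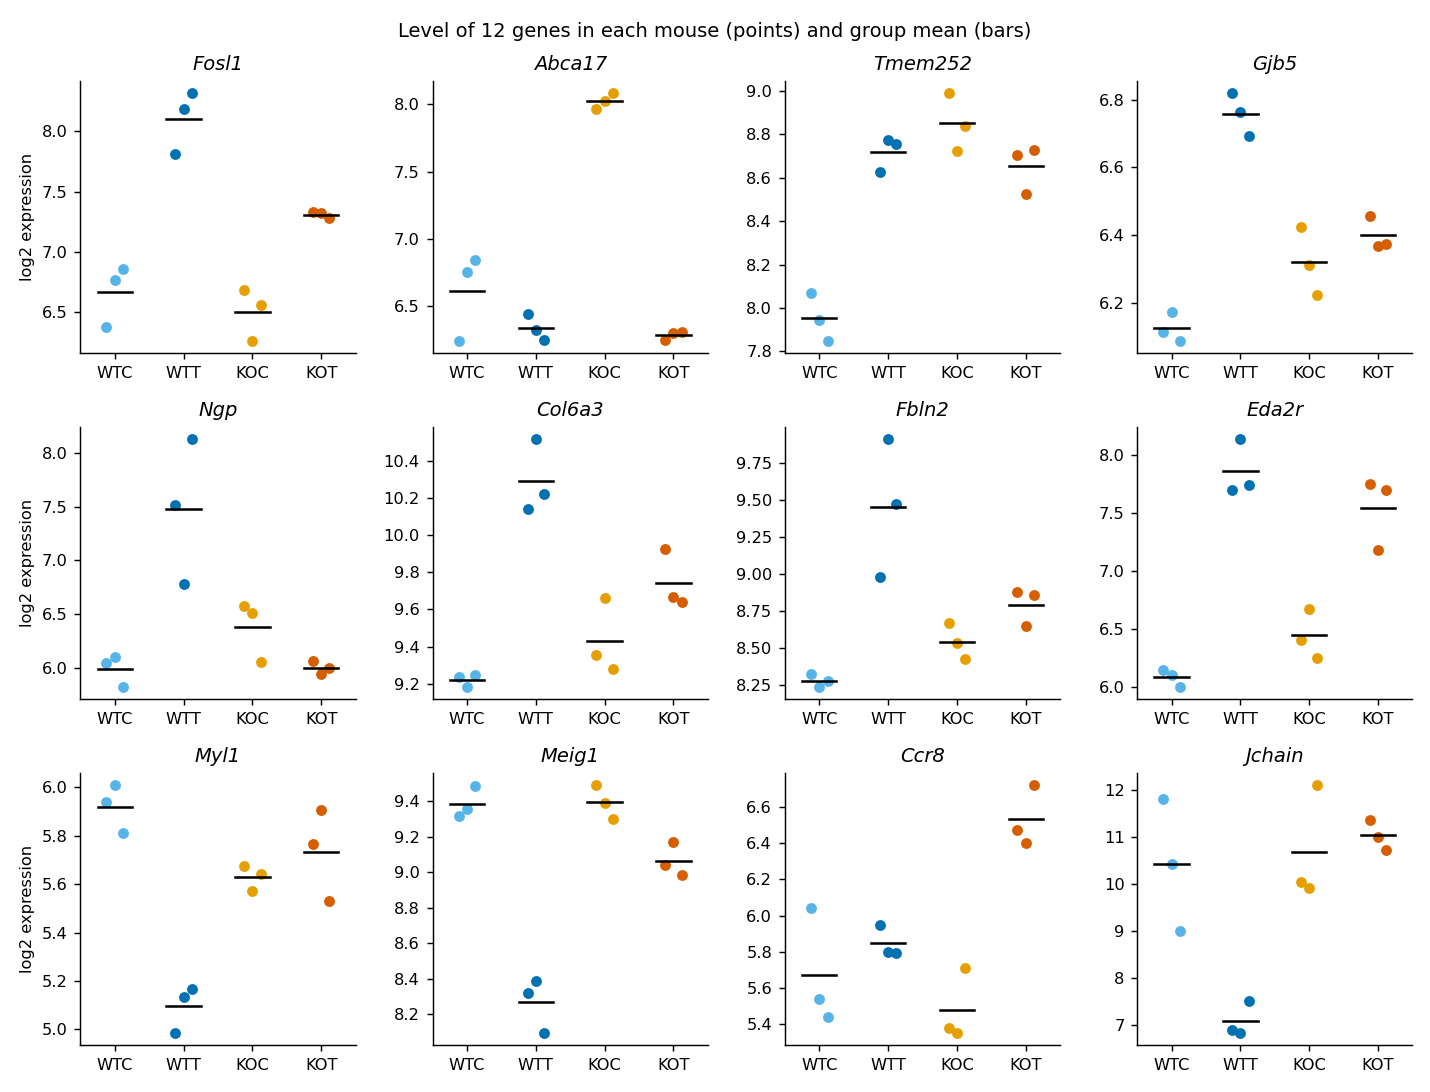
Level (log2 expression) of 12 genes in each of the 12 mice, with bars at the group means. The genes of the upper rows have negative interactions and those of the lowest row positive ones. Abca17 stands apart in KOC mice, Meig1 is lowest in WTT mice and next lowest in KOT mice, Jchain is lowest in WTT mice, and Ccr8 is highest in KOT mice.

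All 18 measured collagen genes had a negative interaction, with a median of -0.35 beside -0.005 for all clusters, and 8 of them (44.4%) had an unadjusted p under 0.05, beside 5.1% of all clusters. Collagens rose in both genotypes, with median responses of 0.78 and 0.45. In Fra-1+/+ lungs 15 passed the test upward, beside 10.2% of all clusters, and in deficient lungs 12 did, beside 7.42%. The mean level of the list was 9.43, 9.65 and 9.43 in WTT mice and 9.32, 9.18 and 9.29 in KOT mice, so the bleomycin groups did not overlap. The PBS groups lay between 8.62 and 8.90. The median difference between genotypes was 0.13 without bleomycin and -0.25 with it. Leaving out any single mouse moved the median interaction of the collagens between -0.39 and -0.29.

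Type VI collagen, the beaded-filament collagen, held the smallest p of the list. Col6a3 read 9.18, 9.23 and 9.25 in WTC mice and 10.14, 10.22 and 10.51 in WTT mice. It read 9.28, 9.35 and 9.66 in KOC and 9.64, 9.67 and 9.93 in KOT mice. Col6a3 rose by 1.07 in Fra-1+/+ lungs (limma adjusted p = 3.6e-04), against a response of 0.31 in deficient lungs (adjusted p = 0.11), and the interaction was -0.76 ± 0.17 (SE). Its 95% interval ran from -1.14 to -0.37. Its partner chains rose in both genotypes, Col6a2 by 0.89 and 0.42 and Col6a1 by 0.73 and 0.40. The basement membrane chains Col4a1 and Col4a2 rose by 0.90 and 0.79 in Fra-1+/+ lungs and by 0.49 and 0.35 in deficient lungs. Of the fibrillar collagens, Col3a1 rose by 1.48 and 0.92 and Col5a2 by 1.55 and 0.99.

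The matrix proteins and enzymes outside the collagens were more mixed. Of 26 measured, 21 had a negative interaction, with 6 negative and 2 positive at an unadjusted p under 0.05, beside 2.1% and 2.99% of all clusters. Fbln2, an elastic fibre and basement membrane protein gene, read 8.24, 8.28 and 8.32 in WTC, 8.98, 9.47 and 9.91 in WTT, 8.43, 8.53 and 8.67 in KOC, and 8.65, 8.86 and 8.88 in KOT mice. All WTT mice were above all other mice. Fbln2 rose by 1.17 in Fra-1+/+ lungs, against a response of 0.25 in deficient lungs that did not pass the test (interaction -0.92 ± 0.25, SE). Adamts1, a secreted matrix protease gene, rose by 0.97 against 0.18 (interaction -0.79 ± 0.21). Tnc, tenascin C of the provisional matrix, rose in both genotypes, by 3.50 and 2.34, and Eln, elastin, by 1.77 and 0.91. Among the 5 members with a positive interaction were Lum and Dcn, which encode small proteoglycans that bind collagen fibrils. Lum was also 1 of the 10 clusters that differed between KOT and WTT at an adjusted p under 0.05 (0.0427%), by 0.95. The TGF-β and myofibroblast list had 18 of 19 negative interactions with a median of -0.18, and 0 at an unadjusted p under 0.05.

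**Figure D4:**
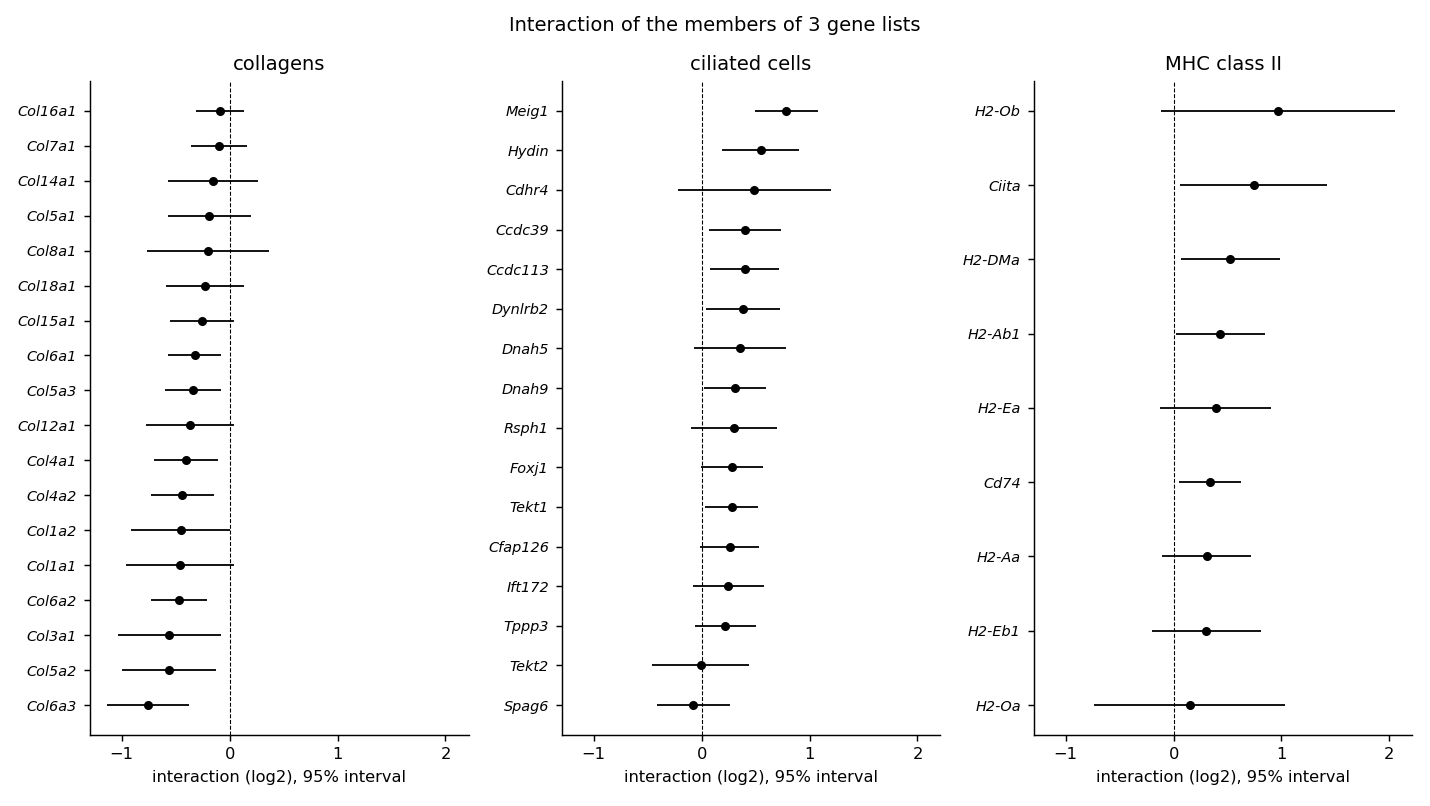
Interaction (log2, points) with its 95% interval (bars) for each measured member of the collagen, ciliated cell and MHC class II lists. All 18 collagens lie below 0, 14 of 16 ciliated cell genes above it and all 9 MHC class II genes above it, and the intervals of most members include 0.

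Genes of motile cilia were many of those with the smallest p on the positive side. In Fra-1+/+ lungs 13 of the 16 measured ciliated cell genes fell after bleomycin, beside 11.3% of all clusters. In deficient lungs 5 fell, beside 7.98% of all clusters. The median responses were -0.51 and -0.23. Of the 16, 14 had a positive interaction and 7 (43.8%) an unadjusted p under 0.05, beside 2.99% of all clusters in that direction. Meig1, which encodes a protein needed for assembly of the sperm flagellum, read 9.31, 9.35 and 9.48 in WTC and 8.10, 8.32 and 8.39 in WTT mice. It read 9.30, 9.39 and 9.49 in KOC and 8.99, 9.04 and 9.17 in KOT mice. The PBS groups lay together, and the WTT mice were the lowest. Meig1 fell by 1.11 in Fra-1+/+ lungs (limma adjusted p = 8.2e-05) and by 0.33 in deficient lungs (adjusted p = 0.035), with an interaction of 0.79 ± 0.13 (SE). It was also the 1 named cilia gene among the 10 clusters that differed between KOT and WTT, by 0.80 (adjusted p = 0.0145).

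Several structural genes of the ciliary axoneme followed. Dnah6, an inner arm dynein heavy chain, read 9.31, 9.41 and 9.61 in WTC, 8.29, 8.50 and 8.53 in WTT, 9.17, 9.17 and 9.25 in KOC, and 8.72, 8.89 and 8.97 in KOT mice. It fell by 1.00 in Fra-1+/+ and by 0.33 in deficient lungs (interaction 0.67 ± 0.14, SE). Wdr63, a dynein intermediate chain, fell by 1.09 and 0.44, and Bbof1, a basal body protein, by 1.08 and 0.43. Hydin, of the central pair apparatus, fell by 1.04 and 0.49 (interaction 0.55 ± 0.16). Vwa3a and a cluster of Ccdc180 fell by 0.55 and 0.60 in Fra-1+/+ lungs, with responses of 0.02 and 0.01 in deficient lungs. Some cilia genes are spread over many clusters of the array. Of 33 clusters of Dnah3, another dynein heavy chain, 26 had a positive interaction at an unadjusted p under 0.05, beside 2.99% of all clusters. All 33 values lay between 0.17 and 0.76. That p was reached in the same direction by 17 of 27 clusters of Ccdc180 and 13 of 22 of Spef2. Their interactions ran from -0.01 to 0.70 and from 0.02 to 0.63, and clusters of 1 gene are not independent. The airway secretory and mucosal list showed no common direction, with 11 of 16 interactions positive and a median of 0.06, which was -0.11 without WTC mouse 76. Its 2 members with an unadjusted p under 0.05 (12.5%, beside 5.1% of all clusters) were Scgb3a2 and Scgb3a1. The lowest interaction was that of Ctse, a cathepsin, at -1.89 ± 1.01 (SE), which LPE called. Scgb3a2 and Scgb3a1, secretoglobins of club and secretory cells, fell by 1.29 and 1.52 in Fra-1+/+ lungs, and their responses of -0.50 and -0.52 in deficient lungs did not pass the test.

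Promoters were read for motifs because the members of the cilia and collagen lists had interactions of largely 1 sign. The window was the 250 bases before the annotated start in RefSeq (GRCm38.p6), and each motif was searched on both strands. The letters GTTGCC, a half-site of the X-box to which RFX factors of ciliated cells bind, stood in the windows of 6 of the 13 ciliated cell genes with an entry (46.2%), beside 11.8% of all 27025 genes. They stood in 1 of 14 collagens with an entry (7.14%) and in 4 of 19 type I interferon-stimulated genes (21.1%). Of the genes that lead the positive side, 2 of 9 held them (Ccdc180 and Tent5c), and of those that lead the negative side 1 of 10 (Myo7a). Ccdc180 is not a member of the ciliated cell list. The AP-1 site TGANTCA, which reads the same on both strands, stood in 2 of 13 ciliated cell genes (Dnah5 and Hydin), in 1 of 14 collagens (7.14%), in 0 of 12 AP-1 subunits, in 4 of 19 type I interferon-stimulated genes (21.1%) and in 7.82% of all genes. It stood in 0 of the 10 genes that lead the negative side and in 0 of the 9 that lead the positive side. The interferon response element stood in 7 of 19 type I interferon-stimulated genes (36.8%), beside 3.46% of all genes. A longer form, GTTGCCATG, which contains GTTGCC, stood in 0.733% of all genes and the X-box palindrome in 0.133%, and neither stood in any of these lists. Letters that match are a description and not a tested site.
Shown are 2 cilia genes with the X-box half-site (capitals) and the 1 collagen with the AP-1 letters (capitals), each 5′ to 3′ on the gene's own strand and ending at the base before the start.
Ccdc180, chr4:45890053-45890302, + strand: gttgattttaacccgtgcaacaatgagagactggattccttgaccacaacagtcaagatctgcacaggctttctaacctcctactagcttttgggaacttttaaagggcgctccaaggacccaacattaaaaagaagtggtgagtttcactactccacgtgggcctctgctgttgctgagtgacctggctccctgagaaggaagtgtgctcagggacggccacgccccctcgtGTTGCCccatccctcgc
Hydin, chr8:110266727-110266976, + strand: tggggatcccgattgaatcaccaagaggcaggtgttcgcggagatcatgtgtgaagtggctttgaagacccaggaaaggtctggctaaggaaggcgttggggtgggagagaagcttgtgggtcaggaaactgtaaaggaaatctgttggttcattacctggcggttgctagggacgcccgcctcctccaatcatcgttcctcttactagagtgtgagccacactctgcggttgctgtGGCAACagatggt
Col6a1, chr10:76726045-76726294, - strand: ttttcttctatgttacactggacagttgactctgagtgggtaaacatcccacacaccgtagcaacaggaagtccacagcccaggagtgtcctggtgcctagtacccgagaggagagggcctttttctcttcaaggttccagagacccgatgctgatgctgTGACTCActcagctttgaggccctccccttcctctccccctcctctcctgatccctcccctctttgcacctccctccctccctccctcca
The X-box half-site lies 17 bases before the start of Ccdc180 and 13 before that of Hydin, where it is on the opposite strand, and the AP-1 letters lie 90 bases before the start of Col6a1.

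Among the other genes that lead the positive side, Myl1, a myosin light chain of fast skeletal muscle, read 5.81, 5.94 and 6.01 in WTC and 4.99, 5.13 and 5.17 in WTT mice. It read between 5.57 and 5.68 in KOC and between 5.53 and 5.91 in KOT mice. All WTT mice were below all other mice. Myl1 fell by 0.82 in Fra-1+/+ lungs, with a response of 0.10 in deficient lungs (interaction 0.93 ± 0.14, SE, limma adjusted p = 0.214). Tent5c, an RNA poly(A) polymerase gene, fell in both genotypes, by 1.19 and 0.56. Cardiac muscle genes, which lung samples hold from the pulmonary veins, had 13 of 15 positive interactions with a median of 0.57 and 4 at an unadjusted p under 0.05 (26.7%, beside 5.1% of all clusters). The median was 0.26 without KOC mouse 53 and 0.96 without KOC mouse 55. Their mean level was 7.79, 8.12 and 8.24 in WTT mice and 8.49, 8.55 and 8.79 in KOT mice, and the KOC mice ran from 8.18 to 9.55. Myl4, an atrial myosin light chain, fell by 1.90 in Fra-1+/+ lungs with a response of -0.65 in deficient lungs.

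The largest interactions in size were those of immunoglobulin genes, with a wide spread between mice. Of the 13 clusters with 1 symbol and an interaction of at least 2, 12 were immunoglobulin clusters, counting Jchain, which encodes the chain that joins IgM and IgA units. Over 16 immunoglobulin clusters, a list put together after their values were seen, the median response was -2.28 in Fra-1+/+ and 0.24 in deficient lungs. Jchain read 11.81, 10.44 and 9.02 in WTC mice 76, 157 and 158, and 6.85, 6.90 and 7.53 in WTT mice. It read 9.92, 10.06 and 12.11 in KOC and 10.74, 11.01 and 11.37 in KOT mice. The WTT mice were lower than every other mouse. Jchain fell by 3.33 in Fra-1+/+ lungs (limma adjusted p = 0.0046), and the response was 0.34 in deficient lungs (adjusted p = 0.79). The interaction was 3.67 ± 0.93 (SE), with a 95% interval from 1.64 to 5.70. One cluster of Ighm, the IgM heavy chain, read 10.42, 8.46 and 7.21 in WTC, 5.41, 5.47 and 5.37 in WTT, 6.59, 8.42 and 8.58 in KOC, and 8.30, 8.84 and 6.43 in KOT mice. The WTT mice were again the lowest, and the other groups each held a wide range. Sequence shared between immunoglobulin genes can split or join their signal on an array.

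**Figure D5:**
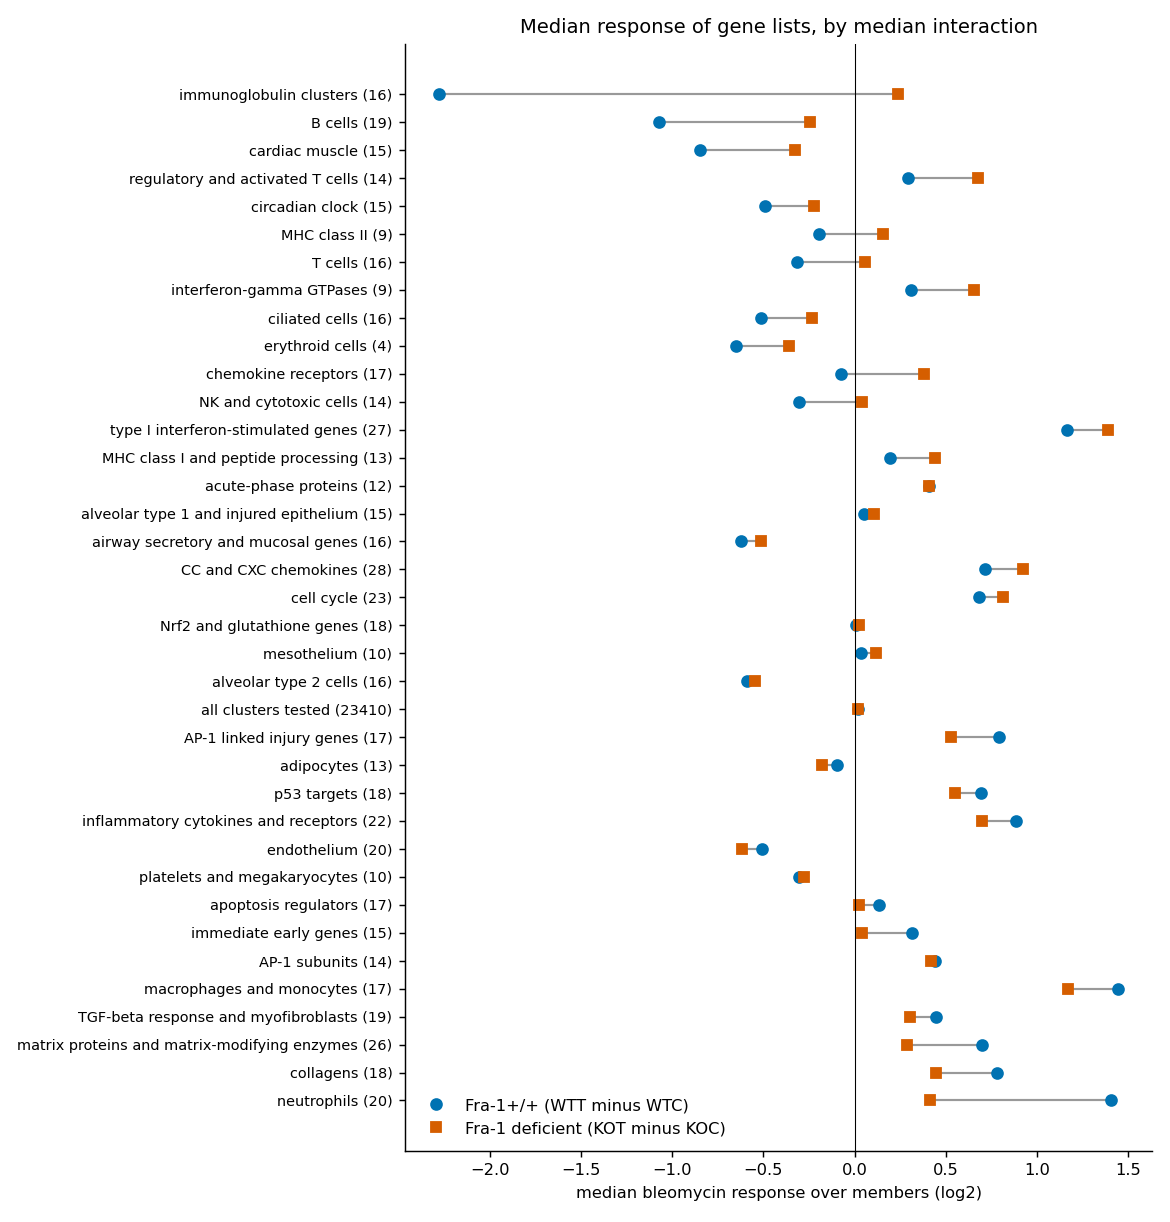
Median bleomycin response (log2) of each gene list in Fra-1+/+ mice (circles) and in deficient mice (squares), ordered by the median interaction, with the number of measured members in parentheses. Neutrophil, collagen and matrix lists lie at the bottom, with the larger rise in Fra-1+/+ mice, and immunoglobulin and B cell lists at the top, with the larger fall in Fra-1+/+ mice.

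All 19 measured B cell genes had a positive interaction, with a median of 0.87. An unadjusted p under 0.05 was reached by 2, Jchain and Cd79b (10.5%, beside 5.1% of all clusters). Jchain is also counted among the immunoglobulin clusters above, so Cd79b was the only such gene that this list added. Cd79b, a signalling chain of the B cell receptor, fell by 1.56 in Fra-1+/+ lungs, with a response of -0.48 in deficient lungs. In Fra-1+/+ lungs 6 B cell genes fell, beside 11.3% of all clusters. In deficient lungs 0 passed the test, where 7.98% of all clusters fell. The mean level of the list was 7.24, 7.46 and 7.80 in WTT and 8.28, 8.32 and 8.97 in KOT mice, which did not overlap. In PBS mice it ran from 7.95 to 9.45, with the 2 highest values in WTC mouse 76 and KOC mouse 67. Without mouse 76 the median interaction of the B cell list was 0.48, and without mouse 67 it was 1.29.

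All 16 T cell genes had a positive interaction with a median of 0.37, which was 0.02 without WTC mouse 76. Gata3 was the 1 member (6.25%, near the 5.1% of all clusters) with an unadjusted p under 0.05. Of 14 genes of regulatory and activated T cells, 4 reached it, Ccr8, Tnfrsf18, Foxp3 and Tnfrsf4 (28.6%, beside 5.1% of all clusters). Their median interaction of 0.42 was 0.25 without WTC mouse 76. Ccr8, a chemokine receptor of regulatory and type 2 T cells, read 5.44, 5.54 and 6.04 in WTC, 5.80, 5.80 and 5.95 in WTT, 5.35, 5.38 and 5.71 in KOC, and 6.40, 6.47 and 6.72 in KOT mice. All KOT mice were above all other mice. Ccr8 rose by 1.05 in deficient lungs (limma adjusted p = 0.0015), against a response of 0.17 in Fra-1+/+ lungs (interaction 0.88 ± 0.22, SE). Foxp3, the defining factor of regulatory T cells, rose in both genotypes, by 0.34 and 0.63. Ccl22, a ligand that attracts them, rose by 1.26 in deficient lungs against a response of 0.58 that did not pass the test.

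All 9 MHC class II genes, which serve the presentation of antigen to helper T cells, had a positive interaction, with a median of 0.39. H2-Ea was 1 of the 9, and its own interaction was the median. It stood 5.71 higher in KOC than in WTC mice and 6.10 higher in KOT than in WTT mice. Of the 9, 4 had an unadjusted p under 0.05 (44.4%, beside 5.1% of all clusters): Cd74, H2-DMa, Ciita and H2-Ab1. None of the 9 had a response that passed the test upward in either genotype. Cd74, the invariant chain, read 12.39, 12.48 and 12.61 in WTC, 12.14, 12.39 and 12.40 in WTT, 12.41, 12.44 and 12.63 in KOC, and 12.62, 12.66 and 12.68 in KOT mice, and its interaction was 0.34 ± 0.13 (SE). For MHC class I and peptide processing, 1 of 13 genes rose in Fra-1+/+ lungs (beside 10.2% of all clusters) and 7 rose in deficient lungs (beside 7.42%), and the median interaction of 0.19 was 0.08 without KOT mouse 81 and 0.37 without mouse 80. H2-Q4 rose by 0.82 in deficient lungs against a response of 0.18, and Nlrc5, the transactivator of class I genes, rose by 0.67 against 0.19. All 9 interferon-γ GTPases and related genes had a positive interaction, with 1 at an unadjusted p under 0.05, Irf1 (11.1%, beside 5.1% of all clusters). Their median of 0.32 was 0.13 without KOT mouse 81 and 0.63 without mouse 80. The class I and interferon-γ lists were higher in KOT mice 72 and 81 than in mouse 80. The class I list was at 10.56, 10.14 and 10.65 in KOT mice 72, 80 and 81, and at 10.30, 10.15 and 10.29 in WTT mice 160, 161 and 164. Of 27 type I interferon-stimulated genes, 22 rose in Fra-1+/+ and 25 in deficient lungs, beside 10.2% and 7.42% of all clusters. Their median responses were 1.17 and 1.39, with 0 interactions at an unadjusted p under 0.05. Their median interaction of 0.19 was -0.06 without KOT mouse 81.

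Of 18 p53 targets, which respond to DNA damage, 13 rose in Fra-1+/+ and 11 in deficient lungs, beside 10.2% and 7.42% of all clusters. Their median interaction of -0.07 was -0.11 without KOC mouse 67 and -0.02 without WTC mouse 76. Unadjusted p under 0.05 was reached by 4 on the negative side, Eda2r, Tnfrsf10b, Ckap2 and Zmat3, and by 1 on the positive side, Gtse1. These 5 are 27.8% of the list, beside 5.1% of all clusters. Eda2r, a death receptor related gene of the TNF receptor family, read 6.0, 6.11 and 6.15 in WTC, 7.70, 7.74 and 8.14 in WTT, 6.25, 6.41 and 6.67 in KOC, and 7.18, 7.70 and 7.75 in KOT mice. It rose by 1.77 and by 1.10. Tnfrsf10b, the TRAIL death receptor, rose by 1.25 in Fra-1+/+ lungs against a response of 0.49, and KOC mice were 0.71 above WTC mice. Gtse1, which restrains p53 in the cell cycle, rose by 0.91 and by 1.19.

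Of the 14 AP-1 subunits, 7 rose in Fra-1+/+ lungs and 5 in deficient lungs, beside 10.2% and 7.42% of all clusters. Fosl1 was the 1 with an unadjusted interaction p under 0.05 (7.14%, near the 5.1% of all clusters). Fos rose by 0.95 and 0.63, Junb by 0.96 and 0.83 and Atf3 by 1.19 and 1.39, and the response of Jun was -0.11 and -0.08. Fos was 0.62 lower in KOT than in WTT mice, a difference that did not pass the test. The 15 immediate early genes, which respond within hours of a stimulus, had Ier2 as the 1 member (6.67%, near the 5.1%) at an unadjusted p under 0.05. Of 17 genes of injury that are known AP-1 targets, 0 reached it.

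Alveolar type 2 cell genes had median responses of -0.59 and -0.55, with a median interaction of 0.005 that was -0.17 without KOT mouse 80. Of the 16, 13 fell in Fra-1+/+ and 9 in deficient lungs, beside 11.3% and 7.98% of all clusters. Of 20 endothelial genes, 13 fell in each genotype, beside the same 11.3% and 7.98%. Of 23 cell cycle genes, 19 rose in Fra-1+/+ lungs and all 23 in deficient lungs, beside 10.2% and 7.42% of all clusters. Their median interaction of 0.03 was -0.13 without WTC mouse 76 and 0.17 without WTC mouse 157. Each of these 3 lists had 0 members with an unadjusted interaction p under 0.05. Circadian clock genes had 3 of 15 (20%), beside 5.1% of all clusters. Nr1d1, a clock repressor, fell by 1.94 and 1.23, Bhlhe41 had an interaction of 0.59, and Nfil3 rose by 1.38 in Fra-1+/+ lungs with an interaction of -0.74. The hour at which each mouse was killed is not given.

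The study listed genes as changed by bleomycin in one genotype alone, and those lists were chosen on these arrays, so they are not independent evidence. The study chose them by LPE at a stricter false discovery rate. The limma counts below use an adjusted p under 0.05 and no fold limit, so they do not test that choice. The study's qRT-PCR of some listed genes is not compared here. Of 136 clusters with a symbol listed for Fra-1+/+ mice, 132 had the same sign of response in deficient lungs, 49 passed the limma test there in that direction, and 31 (22.8%) had an unadjusted interaction p under 0.05. Of 153 listed for deficient mice, 145 had the same sign in Fra-1+/+ lungs, 82 passed there, and 15 (9.80%) had an unadjusted interaction p under 0.05. Of all clusters, 15.4% passed in deficient and 21.5% in Fra-1+/+ lungs, in either direction. Even of the clusters that passed in neither genotype, 67.0% had the same sign in both. None of either list had an adjusted interaction p under 0.05, and 5.1% of all clusters had an unadjusted interaction p under 0.05. The extracellular matrix category of the Fra-1+/+ list had the highest share among categories of 5 or more genes, 9 of 16 (56.25%), all negative. The category of programmed cell death had 4 of 12 (33.3%), all negative, among them Peg3, an imprinted zinc finger gene. Peg3 read 7.74, 9.14 and 8.81 in WTT mice 160, 161 and 164, between 7.25 and 7.62 in WTC, between 7.60 and 8.03 in KOC and between 7.72 and 7.89 in KOT mice, and the rise of 1.12 stood in mice 161 and 164. The inflammation category listed for deficient mice had 39 of 42 positive interactions with a median of 0.25, and 7 had an unadjusted p under 0.05 (16.7%).

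Groups were also compared without a model. A cluster was counted when every difference between a KOT and a KOC mouse lay above, or below, every difference between a WTT and a WTC mouse. This held for 485 clusters (2.07%), of which 240 were above (1.03%) and 245 below (1.05%). It held for 5 of 18 collagens, all below, for 2 of 16 ciliated cell genes, for 6 of 16 immunoglobulin clusters and for 1 of 20 neutrophil genes.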

How the data were processed

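Left lung RNA of 12 mice was hybridised to Affymetrix MoGene 1.0 ST arrays, 1 mouse per array. The deposited values are log2 expression per transcript cluster, made by the authors with RMA, quantile normalisation and median polish in Affymetrix Power Tools. Groups were taken from the sample titles, 3 mice each, and gene symbols from the array's platform annotation, which can be old. Quantile normalisation gives every array the same distribution, so a shift of all genes together would not be seen. The number of arrays limits the precision.

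All 23410 clusters with a symbol were fitted with 1 mean per group in limma 3.58.1 (R 4.3.3), with 8 residual degrees of freedom, empirical Bayes variances and Benjamini-Hochberg adjustment. The contrasts were the interaction, the bleomycin response of each genotype and their mean, and the genotype difference within each treatment. LPE, the test of the study's methods, was written anew with 100 intensity bins and a spline of 10 degrees of freedom. Both tests were tested on simulated data. The study calls the Fra-1+/+ mice littermates of the deficient mice, but labels do not say which mice shared a litter. The fit treats mice as independent, so p-values measure the spread between these samples.

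Genes were named by rule: the 10 clusters of smallest interaction p in each direction, the 2 members of smallest p in each gene list, the 3 genes of largest mean response per direction, the AP-1 subunits, and genes that the study's text names as changed in 1 genotype, of which those with values to compare are described. Members named to spell out a small count, and others of the lists, were chosen after their values were seen. Members and lists were chosen with earlier results of these data known. Promoter sequence is from RefSeq (GRCm38.p6). Alternatives were LPE, array weights, other scalings and filters, a term for animal numbers and leaving out each mouse.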

Additional observations from a re-analysis of the deposited data

How the results depend on the processing

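The interaction had 0 clusters past the limma threshold as reported, and with LPE it had 236 at an adjusted p under 0.01 and 307 under 0.05. Separating animal numbers under 100 from the rest, which amounts to leaving out WTC mouse 76, gave 1, Abca17, and leaving out single mice gave 0 to 3, the 3 being clusters shared by Gm2411, Cldn34c4 and Cldn34c1 without KOC mouse 67. Responses passing in Fra-1+/+ mice numbered 1853 and 2657 with LPE at those thresholds and 3304 to 5211 without single mice. In deficient mice they numbered 1889 with LPE under 0.01, 7118 with array weights, and 1854 to 3945 without single mice. The median interaction of the clusters that rose was -0.0019 over those called by LPE under 0.01, -0.0961 with equal array medians, and -0.0967 to -0.0041 without single mice. For those that fell it was 0.205 at a mean response of at least 2-fold, and -0.0237 to 0.0929 without single mice. The share of intervals within 2-fold was 92.9% to 94.0% without single mice. Clusters whose groups did not overlap numbered 734 over all clusters of the array and 755 to 1400 without single mice, since fewer mice overlap less often, and 2128 without both WTT 160 and KOT 80, an alternative chosen after seeing the data, under which 5396 and 4355 clusters passed in Fra-1+/+ and deficient mice. LPE called 7 and 17 of the genes the study listed and 41 and 61 members of the gene lists under 0.01 and 0.05, against 0 in limma and 0 to 0 without single mice. Of 802 values of 73 named genes under 11 alternatives, 5 changed sign: Junb (0.143) and Ccl2 (0.0224) with LPE at both thresholds and Jun (-0.018) with equal array medians. Of 876 without single mice 17 did, and over those the interaction ran from -0.256 to 0.0835 for Junb, -0.0401 to 0.133 for Jun, -0.0273 to 0.359 for Atf3, -2.15 to 0.0561 for Cxcl2, -0.569 to 0.0016 for Timp1, -0.874 to 0.300 for Ccl2 and -0.759 to 0.359 for Tff2. Where no construction is named, the cause was not tested. No paired analysis was possible because animal numbers are not shared between groups. Signal over background was not among the values used here, so dim clusters could not be set apart.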
